A study of Homo sapiens with 6 samples.

Results

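The genes described here make glutathione or spend it on peroxides. They were the 10 genes SLC7A11, GCLC, GCLM, GSS, GSR, GPX1, GPX2, GPX3, GPX4 and GPX8, found by symbol among the 27968 genes of the deposited tables. RNA was sequenced from A549 and H23, established human cell lines kept as models of lung adenocarcinoma, with 3 independent untreated cultures of each. The labels give RPM1640 (so spelled) as the medium of H23 and DMEM as that of A549, with 10% fetal bovine serum in each and harvest at about 80% confluence, so line and medium cannot be told apart. Libraries were made from total RNA after removal of ribosomal RNA. Both groups are single lines, and no normal lung cells were compared.

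Glutathione is a tripeptide of glutamate, cysteine and glycine and the main soluble thiol of most cells. Cystine enters through a transporter, glutamate-cysteine ligase joins the first pair of amino acids in the rate-limiting step, and glutathione synthetase adds glycine. Peroxidases of the GPX family oxidise glutathione while they reduce hydrogen peroxide or lipid peroxides, and glutathione reductase restores it with NADPH. In lung epithelium this cycle is known as a main defence against inhaled oxidants.

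The libraries held 23399562 to 25348083 estimated read counts in A549 and 29395795 to 42421642 in H23. The RNA make-up differed between the 2 sets of libraries. Genes under 500 bases took 45.3% to 48.0% of the TPM (a level scaled for transcript length and depth) in A549. In H23 they took 10.9% to 13.4%. The top gene was RNA5-8SN4, a ribosomal RNA gene, or RMRP in A549, at 11.4% to 13.3% of the TPM. It was RNR2 or GAPDH in H23, at 1.99% to 2.88%. Whether the cells or the library preparation gave this difference was not tested. On log2(TPM + 1) the median gene lay 0.41 lower in A549, against 0.03 lower in CPM, and fits on rescaled values stand in the closing section. Levels between lines are given as CPM (counts scaled to library size with TMM factors) and levels between genes as TPM. H23 replicate 1 stood apart, with a chi-square per gene of 103 and 130.0 against the other H23 libraries, which gave 5.44 between themselves. The epithelial keratins and adhesion genes were detected in both lines, with a summed TPM over 5 markers of 3333 to 3371 in A549 and 3981 to 4130 in H23. Marker sums here are in TPM and show detection within a line, so they are not compared between the lines. KRT8 and KRT18 led, with means of 2186 and 2250 CPM in A549 and 1493 and 2144 CPM in H23. Mean CPM in A549 and H23 was 61.8 and 4.68 for KRT19, 14.4 and 38.7 for CDH1, and 3.61 and 6.81 for EPCAM. The distal lung markers summed to 0.62 to 0.86 TPM in A549 and 2.90 to 3.81 TPM in H23 over 5 genes, with NKX2-1 and SFTPA1 at 0 counts in A549 and SFTPA1 and SFTPC at 0 counts in H23. Leukocyte markers summed to at most 4.09 and 8.39 TPM in A549 and H23, endothelial markers to 0.05 and 0.29, and fibroblast markers to 2.06 and 8.47. CD3E and DCN were at 0 counts in both lines.

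In these bulk libraries, where fewer cells with a transcript and less of it per cell cannot be told apart, A549 carried more mRNA for cystine import, for both ligase subunits, for the reductase and for GPX1, GPX2 and GPX8, while H23 carried more for GSS and GPX4. Of the 10 genes, all of which passed the filter on low counts, 7 were called with A549 higher and 2 with H23 higher, at an edgeR adjusted p under 0.05. GPX3 did not pass. Over all 15426 genes tested, 37.6% were called with A549 the higher line and 39.6% with H23, 77.2% in all. In CPM, all 3 A549 libraries lay on one side of all 3 H23 libraries for each of the 10 genes, as for 82.1% of all genes tested, so calls and separation were common throughout the table. The sizes of the differences were less common: 7 of the 10 genes were called with a difference of at least 4-fold, against 25.5% of all genes tested. The median log2 fold, A549 over H23 here and below, was 2.38 over the 10 genes and -0.03 over all genes tested. The 10 genes were chosen with earlier results of these data known, so both comparisons of size describe them and test nothing.

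**Figure D1:**
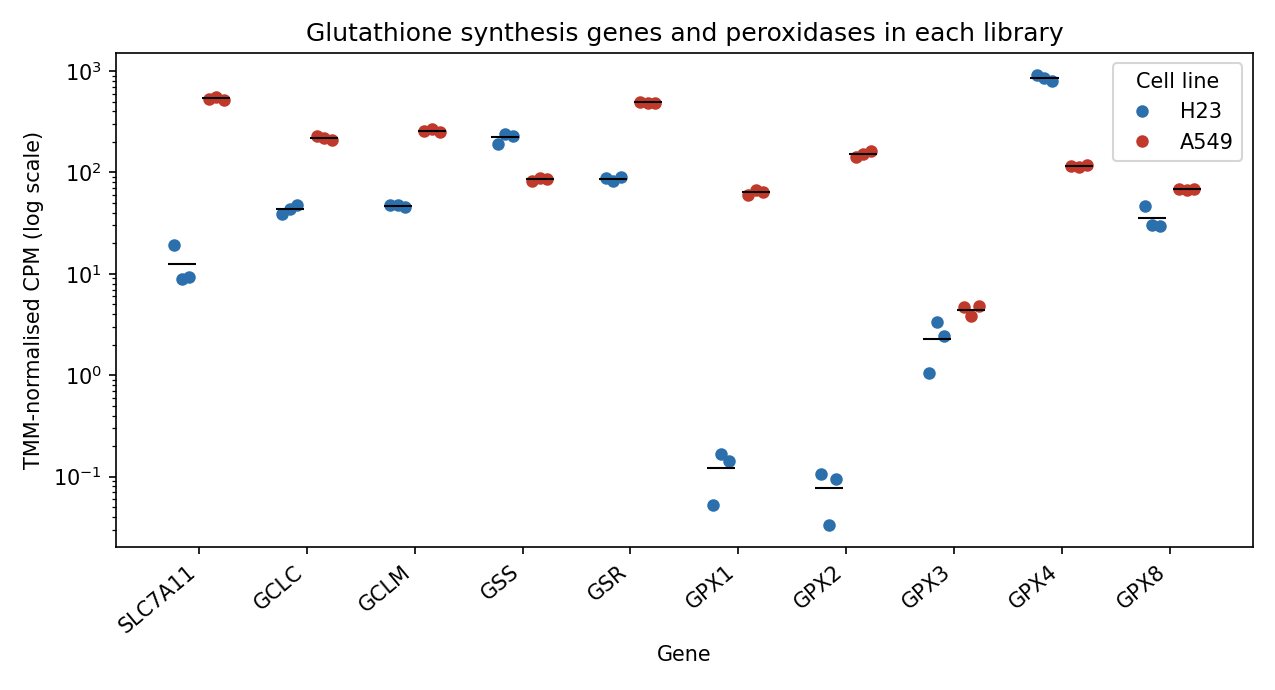
TMM-normalised CPM on a log scale for each gene in each of the 6 libraries; points are libraries and black bars are means of 3. The lines do not overlap for any gene, GPX4 and GSS are higher in H23, and GPX1 and GPX2 in H23 lie between 0.0334 and 0.167 CPM.

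SLC7A11 encodes xCT, the light chain that carries cystine in exchange for glutamate. It stood at 19.1, 8.99 and 9.20 CPM in H23 replicates 1 to 3 and at 535, 559 and 520 CPM in the A549 libraries. Within H23 the first library was the highest, and the lowest A549 library was still far above it. The log2 fold was 5.43 ± 0.34 (approximate SE, n = 3 each, edgeR adjusted p = 1.02e-05). With a trend with transcript length and GC content removed it was 4.10 (edgeR adjusted p = 2.14e-08), and on log2(TPM + 1) it was 4.38 (limma adjusted p = 1.42e-06), within a range of adjusted p of 9.65e-78 to 0.000129 over 17 alternatives. SLC3A2, the heavy chain that holds xCT at the cell surface and also serves other amino acid transporters, was also higher in A549, with 944, 953 and 958 CPM against 126, 137 and 136 CPM in the H23 libraries (log2 fold 2.84 ± 0.08). The ratio of SLC7A11 to SLC3A2 in TPM, chosen after the values were seen, was 0.0190 ± 0.0095 in H23 and 0.113 ± 0.0042 in A549 (SD, n = 3 each). The light chain was thus the scarcer mRNA of the pair in every library. An exact two-sided permutation test of that ratio gave p = 0.1, the smallest that 3 libraries against 3 allow.

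Glutamate-cysteine ligase is built from a catalytic subunit, GCLC, and a modifier subunit, GCLM, which lowers the amount of glutamate needed. GCLC was at 39.3, 44.0 and 48.1 CPM in H23 and at 228, 218 and 208 CPM in A549 (log2 fold 2.31 ± 0.10, edgeR adjusted p = 2.41e-06). GCLM was at 47.4, 47.3 and 45.5 CPM in H23 and at 254, 266 and 250 CPM in A549 (log2 fold 2.46 ± 0.08, edgeR adjusted p = 5.78e-07). The libraries of a line lay close together for both subunits. GCLM was 1.37 with the length and GC trend removed (edgeR adjusted p = 0.000158) and 1.84 on log2(TPM + 1), and GCLC was 1.72 on log2(TPM + 1), all still called. The ratio of GCLC to GCLM in TPM was 1.11, 1.24 and 1.42 in H23 and 1.20, 1.10 and 1.12 in A549. These ranges overlapped, and an exact two-sided permutation test gave p = 0.3, where 0.1 was the smallest possible. A difference in the balance of the subunits was therefore not detected with 3 libraries a line.

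GSS, glutathione synthetase, went the other way. It was at 190, 242 and 231 CPM in H23 and at 83.0, 87.6 and 86.6 CPM in A549 (log2 fold -1.37 ± 0.11, edgeR adjusted p = 3.14e-05). Both synthesis steps thus differed between the lines, in opposite directions. Per length, GSS mRNA was 10.5 ± 0.811 times GCLC mRNA in H23 and 0.821 ± 0.058 times in A549 (SD of the TPM ratio, n = 3 each, chosen after the values were seen). The exact permutation p of that ratio was 0.1, again the smallest possible. With GSS and GCLC already apart in opposite directions, the ratio had to separate, so this p adds no support.

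GSR, glutathione reductase, reduces oxidised glutathione. It was at 88.4, 82.1 and 90.1 CPM in H23 and at 500, 486 and 486 CPM in A549 (log2 fold 2.50 ± 0.08, edgeR adjusted p = 5.84e-07). In A549 its level per length, 173 ± 5.88 TPM, overlapped those of GPX2 and GPX4, the highest peroxidases of that line.

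**Figure D2:**
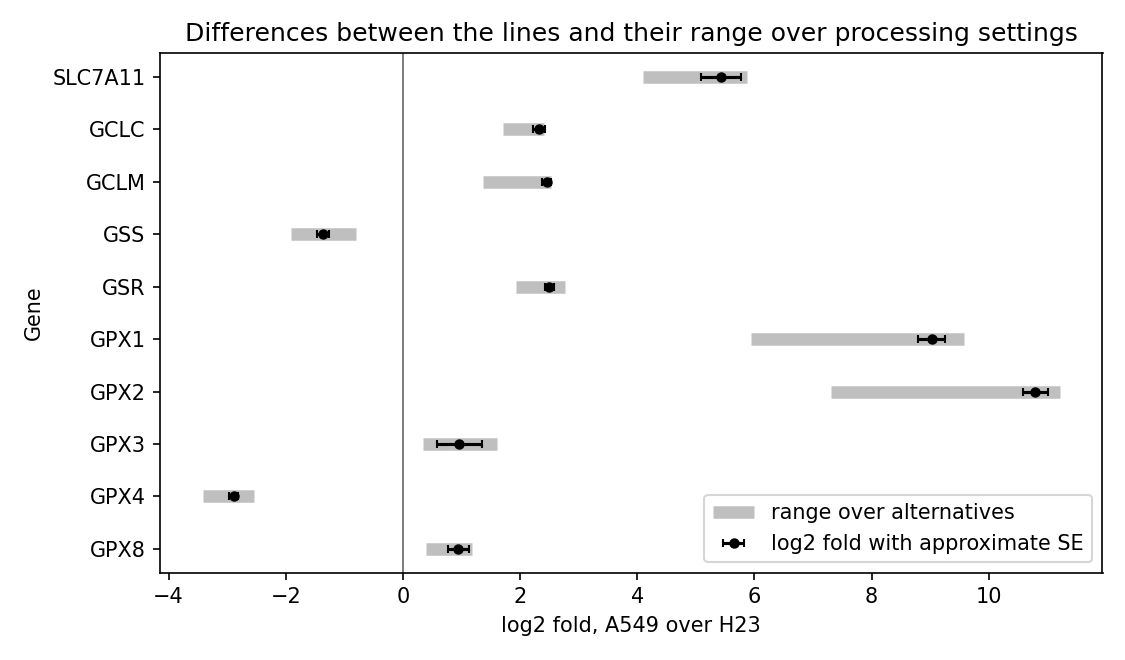
Log2 fold of A549 over H23 for each gene, with an approximate SE (black) and the range over 17 other processing settings (grey bars). No grey bar crosses 0; the widest are those of GPX1 and GPX2, whose H23 counts are near the floor of detection.

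The peroxidases differ in what stands at the catalytic position. GPX1, GPX2, GPX3 and GPX4 are selenoproteins, in which a UGA codon is read as selenocysteine instead of stop, and GPX8 is a membrane protein of the endoplasmic reticulum with cysteine there. The coding sequences around that codon are shown because the measured peroxidases split by it. Each is a GENCODE 29 reference transcript read 5′ to 3′, with the codon in capitals and 30 bases in all. The TGA is the only in-frame one in each of the GPX1 to GPX4 coding sequences and is annotated as selenocysteine. In GPX8, with no in-frame TGA, the codon is the one aligned to codon 49 of GPX1.
GPX1 codon 49: aatgtggcgtccctcTGAggcaccacggtc
GPX2 codon 40: aatgtggcttcgctcTGAggcacaaccacc
GPX3 codon 73: aacgtggccagctacTGAggcctgacgggc
GPX4 codon 73: aacgtggcctcccagTGAggcaagaccgaa
GPX8 codon 79: aacgtggccagtgacTGCcaactcacagac

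GPX4, which reduces lipid hydroperoxides within membranes and is known as a brake on ferroptosis, was the highest of the 10 genes in H23. It was at 904, 856 and 802 CPM in H23 and at 115, 113 and 117 CPM in A549 (log2 fold -2.89 ± 0.08, edgeR adjusted p = 4.36e-07). Every H23 library was far above every A549 library. Per length it was at 1743, 1795 and 1693 TPM in H23, and the next gene there, GSS, was at 198 ± 33.5 TPM.

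GPX1, the general cytosolic peroxidase, and GPX2, a peroxidase best known from gut epithelium, were close to absent from H23. GPX1 had 2, 5 and 6 estimated counts in the H23 libraries, 0.0528, 0.167 and 0.141 CPM, against 59.8, 66.9 and 64.0 CPM in A549. Its log2 fold was 9.02 ± 0.23 (edgeR adjusted p = 3.42e-07), and 5.94 on log2(TPM + 1) (limma adjusted p = 3.88e-08), where the pseudocount holds down the fold of a gene this low in H23. GPX2 had 4, 1 and 4 counts in H23, 0.106, 0.0334 and 0.0941 CPM, against 141, 153 and 162 CPM in A549. Its log2 fold was 10.8 ± 0.21 (edgeR adjusted p = 1.69e-07), and 7.31 on log2(TPM + 1) (limma adjusted p = 2.11e-08). These 2 genes were called with a log2 fold above 8, as were 1.78% of all genes tested. Both passed the filter on low counts through A549 alone, so that share is given as background and not as a sign of rarity. A floor of 3 counts in a single H23 library was worth 0.0707 to 0.102 CPM, so the H23 levels of both genes rest on few reads. The ± of these folds comes from the test statistic and can be smaller than the counting error of so few reads. GPX1 has processed pseudogenes, and how reads were shared with them is not given in the sources used here.

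GPX3 encodes the secreted peroxidase of plasma. It was low in both lines, at 1.06, 3.34 and 2.45 CPM in H23 and at 4.65, 3.79 and 4.83 CPM in A549. The values did not overlap, but the lowest A549 library was close to the highest H23 library, and in TPM the ranges overlapped (0.96, 3.32 and 2.44 in H23, 3.03, 2.45 and 3.32 in A549). The log2 fold was 0.96 ± 0.38 (edgeR adjusted p = 0.0521). It passed in 8 of 17 alternatives, among them without H23 replicate 1 (0.63, edgeR adjusted p = 0.00134) and without H23 replicate 2 (1.32, 0.02), and the highest adjusted p was 0.287, on log2(TPM + 1), where the log2 fold was 0.35.

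GPX8 was at 46.2, 30.6 and 29.7 CPM in H23 and at 69.3, 67.3 and 68.2 CPM in A549 (log2 fold 0.94 ± 0.18, edgeR adjusted p = 0.00225). H23 replicate 1 was the highest of its line, though below every A549 library. In TPM the gap narrowed, with 19.0 in H23 replicate 1 and 19.4 in the lowest A549 library. The log2 fold was 0.39 on log2(TPM + 1) (limma adjusted p = 0.038). With the length and GC trend removed it was 0.42 (edgeR adjusted p = 0.00179).

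The peroxidase pool therefore had a different make-up in each line. The summed TPM of the 5 described GPX genes was 1764, 1812 and 1709 in H23 and 409, 425 and 467 in A549. Within that sum GPX4 took 98.9%, 99.0% and 99.1% in H23 and 39.2%, 37.0% and 37.0% in A549. GPX2 took 40.9% ± 1.42 and GPX1 16.1% ± 0.713 in A549 (SD, n = 3), with 0.00705% ± 0.00332 and 0.00870% ± 0.0046 in H23. GPX8 took 0.871% ± 0.177 of the sum in H23 and 4.68% ± 0.234 in A549. GPX3 stayed under 1% of the sum in all libraries, at 0.127% ± 0.0658 in H23 and 0.676% ± 0.0875 in A549. The lower sum in A549 also held on other scales: it was 730 ± 33.5 against 1831 ± 56.4 when TPM was rescaled to mRNA genes, and 403 ± 13.4 against 892 ± 58.3 as CPM.

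**Figure D3:**
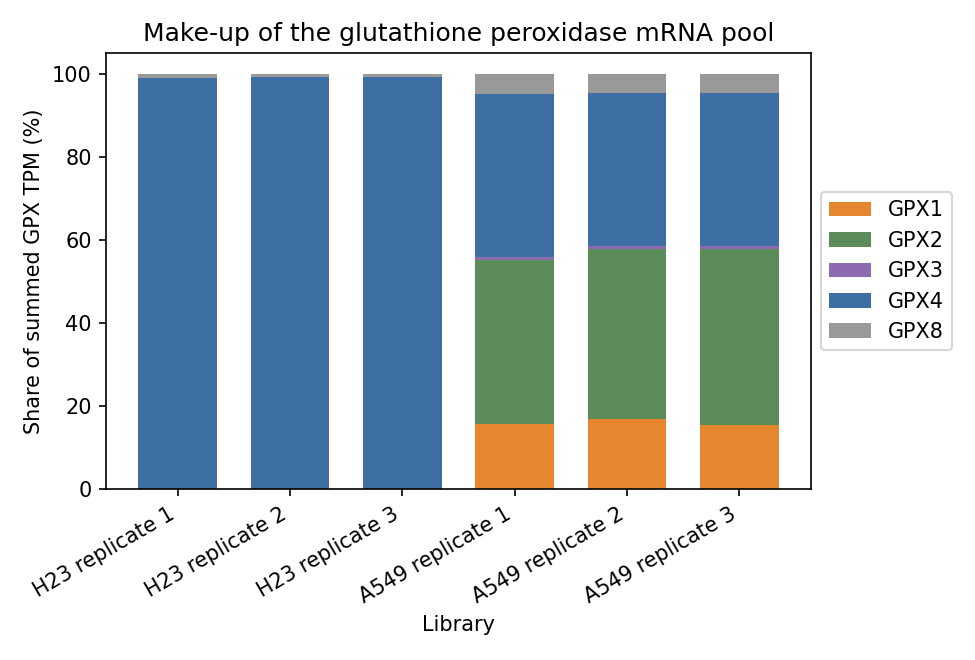
Share of each of 5 GPX genes in their summed TPM, as stacked bars to 100% for each library. GPX4 makes up about 99.0% in the H23 libraries, whereas GPX2, GPX4 and GPX1 share most of the sum in A549.

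Ordered per length within A549, GPX2 (178 ± 18.1 TPM), GSR (173 ± 5.88) and GPX4 (163 ± 8.05) led, and neighbours in that order overlapped between libraries. GPX1 and GCLC followed at 69.6 ± 4.5 and 63.7 ± 1.89 TPM, also overlapping. SLC7A11 was at 60.3 ± 0.957 TPM, GCLM at 56.0 ± 1.11 and GSS at 52.3 ± 2.6, and the last pair overlapped. GPX8 at 20.2 ± 0.825 and GPX3 at 2.93 ± 0.443 TPM came last, each clear of its neighbours. In H23 the order was steeper. GPX4 at 1744 ± 50.8, GSS at 198 ± 33.5 and GSR at 44.9 ± 2.77 TPM did not overlap, GCLC, GPX8 and GCLM lay at 18.8 ± 2.75, 15.3 ± 3.13 and 14.97 ± 0.662 TPM with overlap between neighbours, and GPX3 and SLC7A11 overlapped at 2.24 ± 1.19 and 2.01 ± 0.820 TPM. GPX1 and GPX2, at 0.153 ± 0.0814 and 0.123 ± 0.0569 TPM, were lowest and overlapped.

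The transcript tables showed 1 main RefSeq transcript for most of these genes. SLC7A11 had a single listed transcript, and GCLC, GSS, GSR and GPX4 had a leading transcript with at least 96.8% of the gene in every library. Of 8 genes with at least 2 transcripts left after filtering, 4 passed a test of transcript proportions (edgeR's diffSpliceDGE), against 25.9% of 7539 genes tested. The minor GCLC transcript and the tested GPX1 and GPX2 transcripts passed the filter on low counts through A549 alone. The count of 4 is therefore given as description only. The GPX4 transcript NM_001039848 made up 1.90%, 2.12% and 2.29% of the gene in H23 and 0.87%, 0.80% and 1.04% in A549, without overlap (edgeR adjusted p = 0.00104 for the gene). The minor GCLC transcript NM_001197115 was at 0% in each H23 library and at 1.02%, 0.96% and 1.53% in A549 (edgeR adjusted p = 0.000218). With transcripts under 5% of their gene left out, the GPX4 and GCLC tests could not be made and 2 genes passed, GPX1 and GPX2. The GPX2 call was lost without H23 replicate 3, without any 1 of the A549 libraries and with a replicate block, and GSR passed without H23 replicate 2. In A549, GPX1 was 96.9% ± 0.645 transcript NM_000581, while the few H23 reads were assigned to NM_201397 at 100%, 100% and 73.4%. GPX2 was 98.0% ± 0.0839 NM_002083 in A549, and its 9 H23 counts fell on NM_002083 in replicates 1 and 2 and on NR_046321 in replicate 3. The H23 shares of GPX1 and GPX2 rest on 13 and 9 counts in all, and the test does not include the error of dividing reads between transcripts. GPX8 did not pass (edgeR adjusted p = 0.469), with its leading transcript NM_001008397 at 66.7%, 73.2% and 69.8% in H23 and 81.8%, 80.5% and 82.2% in A549.

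Several of these genes, GCLM, GCLC, GSR, GPX2 and SLC7A11 among them, are known targets of the transcription factor NRF2, which binds the antioxidant response element. Promoter windows of 250 bases before to 50 after a start site were searched on both strands for TGACNNNGC, a core of that element. RefSeq windows (GRCh38.p14) were found for 7 of the 10 genes, and 2 of these, GCLM and GPX2, held the motif. SLC7A11, GSS and GSR had no window, and the GCLC window held no motif. Sequence outside the windows was not searched. Of all 35116 windows in the table, 13.3% held it, and counted by gene, as the 7 are here, 16.1% of 27305 genes did. In both promoters the motif lay on the strand opposite to the gene, so the capitals below show its reverse complement; the motif itself reads TGACTAAGC in GCLM and TGACTTAGC in GPX2. Both sequences give the 250 bases before the start, 5′ to 3′ on the strand of the gene, which is the minus strand in each case. The capitals begin 34 bases before the start in GCLM and 122 bases before it in GPX2.
GCLM chr1:93909431-93909680: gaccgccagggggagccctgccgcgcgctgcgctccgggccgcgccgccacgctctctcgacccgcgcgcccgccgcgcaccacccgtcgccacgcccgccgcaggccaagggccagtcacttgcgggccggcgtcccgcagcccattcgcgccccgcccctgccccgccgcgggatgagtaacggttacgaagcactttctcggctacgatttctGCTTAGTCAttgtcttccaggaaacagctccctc
GPX2 chr14:64942746-64942995: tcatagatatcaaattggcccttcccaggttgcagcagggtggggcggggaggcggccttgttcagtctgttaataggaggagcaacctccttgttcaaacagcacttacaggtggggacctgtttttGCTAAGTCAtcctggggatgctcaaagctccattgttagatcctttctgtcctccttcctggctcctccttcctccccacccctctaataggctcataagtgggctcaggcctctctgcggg

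The motif was also present near a start of 10 of the 38 other pathway genes with a window. Some genes have several windows, and counted by gene 16.1% of the 27305 genes in the table held it. Of those 10 genes, SLC3A2, GGT1, SECISBP2, SCLY, AIFM2 and NCOA4 were called toward A549, and CBS and SLC25A39 toward H23 (log2 fold -2.53 and -1.30). DPEP1 and SELENOP were too low to test. Of all genes tested, 37.6% were called toward A549 and 39.6% toward H23. Whether the motif goes with the direction of a difference was not tested. SECISBP2 and SLC25A39 are named here after their values were seen. SLC3A2 and AIFM2 are shown as partners of xCT and GPX4, chosen with their values known. They carried the same core, TGACTCAGC, on the gene's strand in SLC3A2 and on the opposite strand in AIFM2. SLC3A2 held it at 1 of its 3 listed starts. A match is a run of letters and does not show binding.
SLC3A2 chr11:62881642-62881690, plus strand: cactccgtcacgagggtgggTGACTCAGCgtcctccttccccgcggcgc
AIFM2 chr10:70132826-70132867, minus strand: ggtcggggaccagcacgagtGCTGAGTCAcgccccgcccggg

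Of 46 other listed genes of the pathway 39 passed the filter, with 14 called toward A549, 16 toward H23 and 9 not called, and a median log2 fold of -0.0049. Over all genes tested 37.6% were called toward A549 and 39.6% toward H23, so these counts lie near the background. Of 14 tested genes of the gamma-glutamyl cycle and cysteine supply, 3 were called toward A549 (37.6% over all genes) and 9 toward H23 (39.6%), and the median was -0.56, against -0.03 over all genes tested. GGT1, the surface enzyme that opens breakdown of extracellular glutathione, was higher in A549, at 52.5, 56.1 and 53.6 CPM against 1.66, 1.94 and 1.34 CPM (log2 fold 5.04 ± 0.15), although close copies of GGT1 in the genome leave the division of reads uncertain. On log2(TPM + 1) its log2 fold was 3.61, still called. CHAC2, which degrades glutathione inside the cell, had a log2 fold of 1.20 ± 0.12 that became 0.31 with the length and GC trend removed (edgeR adjusted p = 0.174, the highest over its alternatives, which began at 1.37e-17). CTH and CBS, the enzymes that make cysteine from methionine by transsulfuration, were both higher in H23. CTH was at 13.9, 17.1 and 20.5 CPM in H23 and at 1.5, 0.919 and 0.776 CPM in A549 (log2 fold -4.01 ± 0.27, edgeR adjusted p = 1.43e-05). CBS was at 83.1, 118 and 121 CPM in H23 and at 16.6, 19.5 and 19.9 CPM in A549 (log2 fold -2.53 ± 0.17). The mRNAs for cystine import were thus higher in A549 and those of transsulfuration higher in H23. Libraries of the lines did not overlap in any of the 4 genes, as for 82.1% of all genes tested. GGT7, a relative of GGT1, had a log2 fold of -1.98 ± 0.15.

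**Figure D4:**
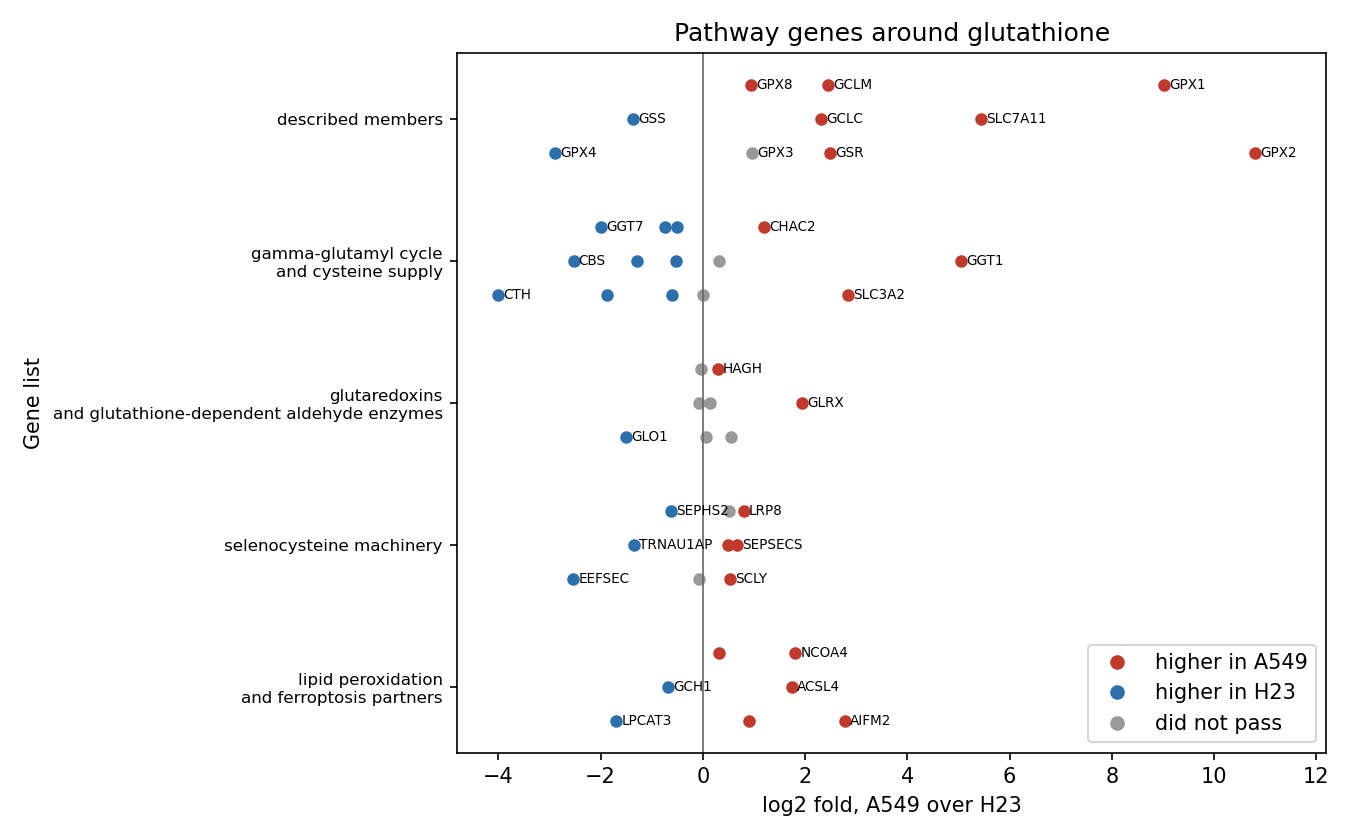
Log2 fold of A549 over H23 for the 10 described genes and for the tested genes of 4 further lists; red points were higher in A549, blue higher in H23, and grey did not pass an edgeR adjusted p of 0.05. SLC3A2 and GGT1 lie with SLC7A11 on the A549 side, and CTH, CBS and EEFSEC lie with GSS and GPX4 on the H23 side.

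Selenocysteine machinery, which GPX1 to GPX4 need for their UGA codon, had 4 of 9 tested genes called toward A549, 3 toward H23 and 2 in neither direction, near the 37.6% and 39.6% of all genes tested. EEFSEC, the elongation factor that brings the selenocysteine tRNA to the ribosome, was at 25.5, 35.2 and 34.4 CPM in H23 and at 5.36, 4.99 and 6.08 CPM in A549 (log2 fold -2.53 ± 0.16, edgeR adjusted p = 1.21e-05). TRNAU1AP, a protein associated with that tRNA, had a log2 fold of -1.34 ± 0.11. SEPHS2, which makes selenophosphate, had one of -0.63 ± 0.07, or -0.15 with the length and GC trend removed, where it did not pass (edgeR adjusted p = 0.0698, with a range of 2.14e-12 to 0.115 over its alternatives). LRP8, a receptor for selenoprotein P, had a log2 fold of 0.80 ± 0.07. SEPSECS, which forms selenocysteine on its tRNA, had a log2 fold of 0.68 ± 0.20 in the count above, but with that trend removed it was called toward H23, at -0.38 (edgeR adjusted p = 0.0086, with a range of 4.04e-08 to 0.465 over its alternatives). Its call was lost without H23 replicate 2 or 3 (edgeR adjusted p = 0.0586 and 0.0594) and without A549 replicate 1 or 2 (0.0574 and 0.0535). SCLY, which frees selenium from selenocysteine, had a log2 fold of 0.53 ± 0.13 and of -0.0071 on log2(TPM + 1).

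Of 7 tested genes of lipid peroxidation and ferroptosis, 5 were called toward A549 and 2 toward H23, where 37.6% and 39.6% of all genes tested were. AIFM2, also called FSP1, a ubiquinone reductase that protects membranes beside GPX4, was at 6.97, 8.15 and 7.44 CPM in H23 and at 53.9, 48.7 and 52.0 CPM in A549 (log2 fold 2.78 ± 0.10, edgeR adjusted p = 1.16e-06). It was thus higher in the line in which GPX4 was lower. On log2(TPM + 1) the AIFM2 value was 1.97, still called. ACSL4, which activates polyunsaturated fatty acids for membrane lipids, had a log2 fold of 1.75 ± 0.21, or 0.75 with the length and GC trend removed. NCOA4, the receptor for ferritin breakdown, had one of 1.81 ± 0.09. LPCAT3, which inserts polyunsaturated acyl chains into phospholipids, had a log2 fold of -1.69 ± 0.14, and GCH1, the first enzyme of tetrahydrobiopterin synthesis, one of -0.67 ± 0.10.

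Of the glutaredoxins and glutathione-dependent aldehyde enzymes, 2 of 8 were called toward A549, 1 toward H23 and 5 in neither direction, where 77.2% of all genes tested were called in either. GLRX, a cytosolic glutaredoxin, had a log2 fold of 1.94 ± 0.14. GLO1, which joins with HAGH to clear methylglyoxal through a glutathione adduct, was at 616, 432 and 472 CPM in H23 and at 180, 181 and 175 CPM in A549 (log2 fold -1.50 ± 0.14). HAGH had a log2 fold of 0.29 ± 0.10 (edgeR adjusted p = 0.0328), which did not pass without H23 replicate 2 (edgeR adjusted p = 0.0606) or without any 1 of A549 replicates 1, 2 and 3 (0.0517, 0.0615 and 0.0961). It also did not pass with upper quartile factors (edgeR adjusted p = 0.171) or with a replicate block (0.0532), and it was -0.25 on log2(TPM + 1).

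Among the other GPX genes, GPX5 and GPX6 had 0 counts in all 6 libraries. GPX7, a cysteine peroxidase of the endoplasmic reticulum and the closest relative of GPX8, had no counts in the A549 libraries against 0.898, 1.5 and 1.27 CPM in H23, which makes it at least 29.5-fold higher there with a floor of 3 counts over the A549 group (edgeR adjusted p = 0.000402). GPX7 passed the filter on low counts through H23 alone, so its p is given as description only. GPX7 and GPX8 thus stood in opposite order between the lines.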

How the data were processed

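Per the file headers, the deposited tables follow the RSEM layout. The authors' expected counts estimate how many reads each gene or transcript received and carry no depth scaling. The authors' TPM values were scaled for length and depth by RSEM, per the file headers. The deposited percent values give a transcript's share of its gene, and the deposited FPKM were not used. The submitters' processing notes name STAR 2.6.0c, RSEM 1.3.0 and the build hg19. Options, annotation release and strand setting are not given in the sources used here. The tables hold no coordinates, so only promoter windows carry positions.

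Expected counts were rounded and fitted over the whole table with edgeR 4.0.16 in R 4.3.3 (filterByExpr, TMM factors of 0.985 to 1.02, robust quasi-likelihood F test, Benjamini-Hochberg adjustment over 15426 genes, threshold 0.05). Approximate standard errors were the size of the log2 fold divided by the root of F, which can be too small for genes near 0 in a line. Transcript proportions were tested with diffSpliceDGE. limma 3.58.1 and DESeq2 1.42.0 served alternatives, with 2 settings on mRNA genes chosen after seeing the data. With 3 libraries a line, 0.1 is the smallest two-sided p of an exact permutation test. Floors cover counting error only.

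The genes and lists were chosen with earlier results of these data known. All 10 genes are named; other lists name up to 3 genes per direction with the largest called log2 fold. SELENOP was listed under an older symbol. In simulated counts for the gene comparison (15170 genes), about 50 genes were given each size of change, with a single dispersion for all. The test found 80% of those given a log2 change of 1, and 10% of those given 0.5, with 8 false calls. In the data 77.2% of genes were called and H23 replicate 1 stood apart, so these shares do not carry over to the fit. The simulated transcript usage test over 3411 genes found all 200 changed genes, with 32 false calls. That result was not broken down by size of change or count level, so it does not carry over to the usage calls above. Among those, the minor transcripts of GCLC and GPX4 shifted by only 1.17 and -1.2 points of their gene (A549 minus H23). The calls of GPX1 and GPX2 rest on few H23 counts.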

Additional observations from a re-analysis of the deposited data

How the results depend on the processing

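The 10 genes kept their direction in all 17 alternatives, and 9 of them their call; GPX3 is the exception given above. The count higher in A549 was 7 or 8 and that higher in H23 was 2 in every alternative. On log2(TPM + 1) and log2(TPM + 0.1), 8 other pathway genes were higher in A549 in both, against 14, and 22 higher in H23, against 16, and over all genes the median log2 fold fell to -0.41 and -0.54 and the share of calls higher in A549 to 31.7% and 31.6%, from 48.7%. The cause was not tested. With TPM rescaled to mRNA genes the count was 17 and the share 54.5%. Reversed values were those of HAGH (-0.25 on both TPM scales), SCLY (-0.0071 and -0.0062 there) and SEPSECS (-0.38 with the length and GC trend removed, with and without a replicate block). Of 357 values of the 21 other named genes, 335 kept direction and call and 16 lost the call without turning. Transcript usage passed for 4 genes, 2 when transcripts under 5% were left out, and 3 to 5 when 1 library was left out. Leaving out 1 library gave 11037 to 13774 called genes over the table, and 12 to 19 other pathway genes higher in A549, the most without H23 replicate 1. Same-numbered libraries share only a number: their deviations correlated at 0.025, -0.0389 and 0.0544, and not every library correlated best with its own number. A replicate block gave 11691 called genes against 11910, 8 and 2 of the 10 genes, 14 and 16 other pathway genes though without HAGH (adjusted p = 0.0532, edgeR), and 3 genes in the usage test, without GPX2. The depth limits GPX1 and GPX2 in H23.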

Other observations

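Of the listed genes too low to test, GPX5 and GPX6 had no counts and 5 had a few. SELENOP, the plasma carrier of selenium, had 34, 8 and 26 counts in the H23 libraries and 3, 4 and 3 in A549. ALOX15, a lipoxygenase, had 10, 3 and 6 counts in H23 and 1, 0 and 1 in A549, and ALOX5 had 2, 3 and 8 in H23 and 1, 2 and 1 in A549. DPEP1, a dipeptidase that splits cysteinylglycine, had 2, 1 and 0 counts in H23 and 10, 11 and 2 in A549. GGT5 had 3, 4 and 8 counts in H23 and 6, 5 and 6 in A549. None of these was compared between the lines.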
